A study of Arabidopsis thaliana with 6 samples.

Results

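Chloroplast-encoded genes are the genes that the plastid keeps in its own small circular genome. They were taken here as every row of the count tables whose locus identifier begins with ATCG, which gave 133 of 32833 loci. Plastid DNA codes for core subunits of the photosystems, the cytochrome complex, the ATP synthase and the NADH dehydrogenase-like complex, for the large subunit of Rubisco, and for part of the plastid's own RNA polymerase, ribosome and protease. Most of it is transcribed as long multi-gene RNAs that are then cut and trimmed. In plastids, as in bacteria, a short poly(A) tail marks RNA for decay, and stable plastid RNAs mostly carry none, so poly(A) selection keeps only a part of them. Cells of the shoot meristem hold small, undifferentiated proplastids, which become green chloroplasts as organs form.

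The libraries came from inflorescence meristems of Arabidopsis thaliana, taken from stems of 15 cm, with flower primordia removed by hand. The 3 control libraries (pCLV3>>erTurquoise) carry an inducible reporter, erTurquoise, under the promoter of CLV3, a gene of the stem cells. In the 3 libraries labelled VGD1 (pCLV3>>erTurquoise, >>VGD1) the same line also carries the pectin methylesterase gene VGD1 under that promoter. Both groups were sprayed with dexamethasone, which releases the GR-LhG4 driver. The labels give its concentration both as 30 mM and as 30 µM, and they put the harvest at 48 hours where the series' design text gives 72 hours. The promoter drives expression in the few stem cells at the tip, while the RNA came from the whole dissected dome, and in such bulk RNA fewer green cells and less plastid RNA per cell cannot be told apart. Nothing in the labels says that replicates were separate plantings, so p-values here reflect only how far these libraries differed.

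Control replicate 3 was the shallowest library with 6638772 counts, and the other 5 held between 18432365 and 24437872. VGD1 (AT2G47040) did not mark its own group: it stood at 9.63 ± 4.24 CPM (counts-per-million units; SD, n = 3) in the controls against 7.21 ± 0.67 CPM in the libraries so labelled. Its log2 fold change was -0.57 (SE 0.25, edgeR adjusted p = 0.372). CLV3 had 0 counts in each control library, and its counts were 3, 8 and 11 in the group labelled VGD1. Of the other genes that mark the shoot meristem, STM, CLV1 and WUS stood at 69.3, 51.6 and 3.67 CPM in the controls. Every direction below is therefore that of libraries labelled VGD1 against controls.

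The annotation at hand describes only 6 of the 133 identifiers, in notes that name the best match of a nuclear protein. These are ATCG00430 (photosystem II reaction center protein G, an old name for a reading frame later recognised as a subunit of the NADH dehydrogenase-like complex), ATCG00530 (CemA, an envelope membrane protein), ATCG00660 (ribosomal protein L20), ATCG00670 (ClpP, the proteolytic subunit of the plastid Clp protease), ATCG00750 (ribosomal protein S11) and ATCG01310 (ribosomal protein L2). The other 127 are given by identifier alone, since neither the tables nor the annotation pair them with a gene. No name was taken from their order.

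Plastid RNA made up 0.0508% to 0.0907% of the counts of a library. Together the 133 rows held 817, 907 and 901 CPM of all counts in control replicates 1 to 3, and 508, 781 and 824 in replicates 1 to 3 labelled VGD1. Replicate 1 labelled VGD1 stood far below the rest, and the groups overlapped, since replicate 3 labelled VGD1 lay above control replicate 1. The means were 875 ± 50.5 and 705 ± 171 CPM (SD, n = 3 each), a log2 ratio of -0.31. Without replicate 1 labelled VGD1 the ratio was -0.12. The exact binomial 95% interval, which covers counting error only, was 498 to 518 for replicate 1 labelled VGD1 and 878 to 924 for control replicate 3, the shallowest library. For comparison, the 33 tested nuclear genes for partner subunits of the same complexes summed to between 15080 and 22726 CPM.

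**Figure D1:**
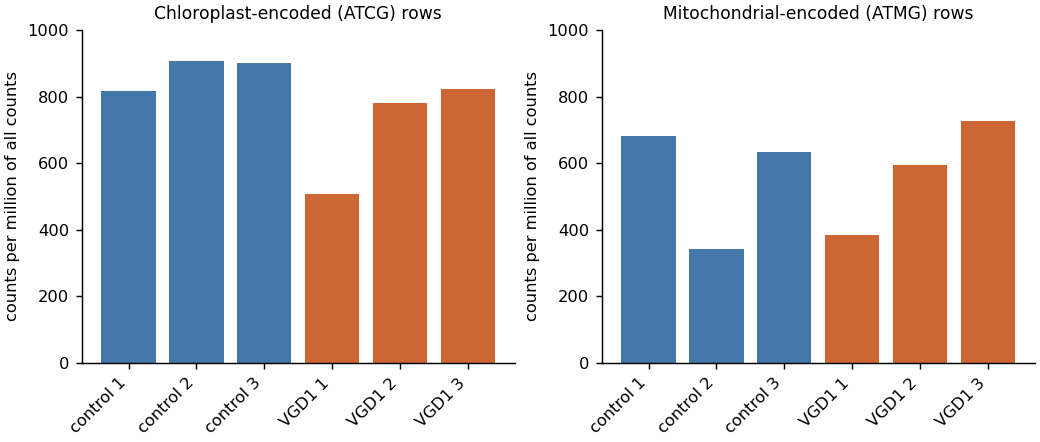
Counts of all chloroplast-encoded rows (left) and all mitochondrial-encoded rows (right) in CPM of all counts, with 1 bar for each library, controls in blue and libraries labelled VGD1 in orange. The plastid bars lie between 508 and 907, lowest in replicate 1 labelled VGD1, and the mitochondrial bars between 343 and 728, lowest in control replicate 2.

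A few rows carried most of that signal. The 2 rows with the most counts held 19.3% to 23.4% of the plastid counts of a library, and the 10 rows with the most counts held 60.6% to 66.8%. At the other end, 15 rows had no count in any library, 18 had 1 to 10 counts in all 6 together, and 84 had a count in every library. Where a row is empty, up to 3 counts remain possible, equal to 0.452 CPM at the depth of control replicate 3 and to between 0.123 and 0.163 CPM elsewhere. In the TAIR10.1 annotation of the chloroplast genome, 33 of 131 gene entries have a sequence that occurs at least 2 times in that genome, because a large part of it is present as an inverted repeat. The entries include 37 tRNA genes and 7 rRNA genes, and which rows these are was not identified. The treatment of reads with several matching places was not given in the sources used here, and an empty row does not show that its RNA was missing.

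ATCG00790 had the most counts of all plastid rows, 11.7% of plastid counts on average over the libraries. It stood at 84.7, 113 and 92.2 CPM in control replicates 1 to 3 and at 70.8, 92.0 and 93.7 CPM in replicates 1 to 3 labelled VGD1. The groups overlapped, and the log2 fold change was -0.18 (SE 0.14, edgeR adjusted p = 0.631). Next came ATCG00480, with 8.77% of plastid counts, and ATCG01130, with 8.71%. ATCG01130 ran from 60.8 to 86.8 CPM in the control group and from 47.3 to 71.8 CPM in the libraries labelled VGD1, so its groups overlapped as well (edgeR adjusted p = 0.513). These are counts that are not divided by gene length, so their order is one of reads and not of transcripts.

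**Figure D2:**
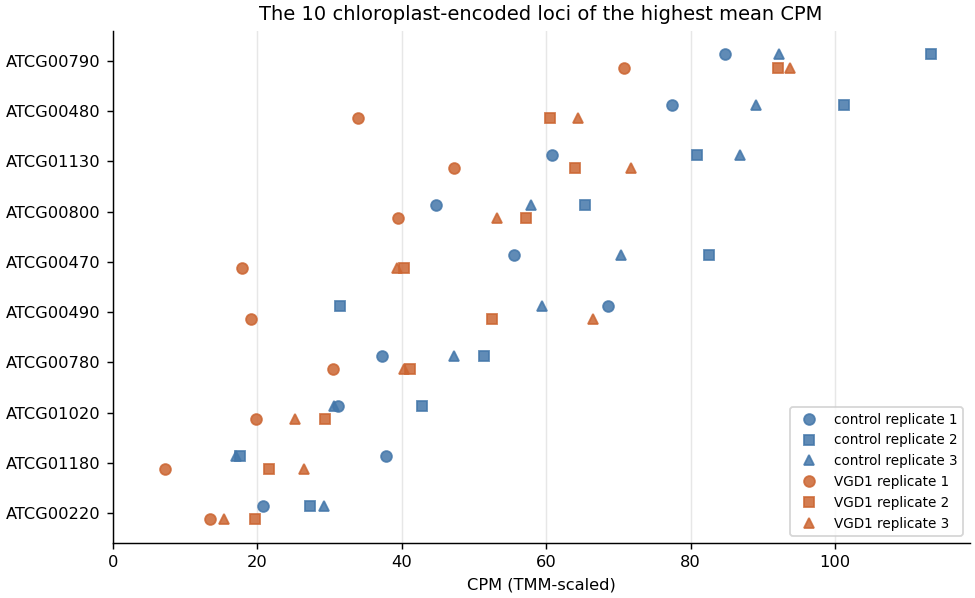
CPM of the 10 chloroplast-encoded loci with the highest mean, each point 1 library, controls in blue above and libraries labelled VGD1 in orange below, with replicate shown by symbol. For ATCG00480, ATCG00470, ATCG01020 and ATCG00220 every orange point lies left of every blue point, while the groups of the other 6 loci overlap, and replicate 1 labelled VGD1 is the lowest point of all 10.

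A coding length was at hand for 5 of the 6 described genes, all but ATCG00430, and among these 5 ClpP and ribosomal protein S11 had the highest levels per length. Divided by the coding length in TAIR10.1, ClpP (ATCG00670) stood at 21.1 ± 1.81 CPM per kb in the controls and 16.95 ± 4.89 in the libraries labelled VGD1 (SD, n = 3 each). Ribosomal protein S11 (ATCG00750) stood at 18.7 ± 4.81 and 20.05 ± 1.61 CPM per kb on the same scale. Within either group ClpP and S11 did not differ beyond their spread.

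The other described genes of the 5 lay far lower on that scale. CemA (ATCG00530) stood at 3.33 ± 1.1 and 2.71 ± 0.27 CPM per kb, and ribosomal protein L20 (ATCG00660) at 2.02 ± 0.58 and 3.08 ± 0.94 CPM per kb. The ranges of these genes overlapped within each group, although CemA was above L20 in every control library. Ribosomal protein L2 (ATCG01310) was lowest, at 0.795 ± 0.06 and 0.271 ± 0.13 CPM per kb. Its sequence occurs 2 times in the chloroplast genome, so its reads may have been split between copies or dropped. The coding sequences of these 5 genes were alike in A content (30.8% to 36.2%), with longest runs of 4 A in ClpP, 6 in CemA and 7 in S11, L20 and L2. In TAIR10.1 S11 is flanked by rpoA and rpl36, ClpP by rps12 and psbB, and CemA by ycf4 and petA, and reads from a shared multi-gene RNA can be counted for any gene it covers.

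None of the described genes passed the test between groups. ClpP measured 11.7, 13.7 and 11.995 CPM in control replicates 1 to 3 against 8.69, 13.3 and 8.03 CPM in the other group (log2 -0.33, SE 0.20, edgeR adjusted p = 0.531). Replicates 1 and 3 labelled VGD1 were low and replicate 2 was within the control range. S11 measured 5.89, 9.90 and 7.65 CPM against 7.59, 8.65 and 8.84 CPM, overlapping throughout (log2 0.08, SE 0.22, edgeR adjusted p = 0.914).

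ATCG00430, the NADH dehydrogenase-like subunit, measured 14.2, 18.2 and 10.5 CPM against 7.54, 12.5 and 12.9 CPM, with overlap (log2 -0.46, SE 0.24, edgeR adjusted p = 0.445). L2 was the described gene with the lowest fold change, on few reads: 0.665, 0.704 and 0.600 CPM against 0.250, 0.312 and 0.108 CPM. Its groups did not overlap, with a log2 fold change of -1.55 (SE 0.57, edgeR adjusted p = 0.263), and these levels rest on 15, 17 and 4 counts against 5, 6 and 2. L20 was the described gene with the highest, 0.753, 0.497 and 0.900 CPM against 0.999, 1.46 and 0.809 CPM, with overlap (log2 0.72, SE 0.44, edgeR adjusted p = 0.529). CemA measured 1.68, 2.07 and 3.15 CPM against 1.75, 2.08 and 1.78 CPM, with control replicate 3 alone standing high (log2 -0.14, SE 0.31, edgeR adjusted p = 0.899).

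Across all plastid loci, 73 had enough reads to be tested and 60 did not, 45 of these with some reads. The untested loci with the most reads were ATCG00100, ATCG01080, ATCG00450, ATCG00520 and ATCG01090, with mean counts per library from 6.83 to 8.00. The test passed 1 plastid locus, which was lower, and 0 higher. That is 1.37% of the tested plastid loci, where 0.416% of all 19719 tested genes were called, 0.314% lower and 0.101% higher. Neither DESeq2 nor limma-voom called a plastid locus higher. At an unadjusted p under 0.05 there were 8 loci, all lower, of the 73, against 8.36% of all genes that were lower at that level (13.6% in either direction). Non-overlapping groups were found for 9 loci, all lower (12.3%, against 9.02% of all genes), and for 0 higher (against 8.17%, or 17.2% of all genes in either direction). The precision was modest, since the median standard error of the log2 fold change was 0.38 for the plastid loci and 0.14 for all tested genes.

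ATCG00390 was the locus that passed. It measured 18.6, 20.2 and 19.9 CPM in control replicates 1 to 3 against 10.3, 11.6 and 12.2 CPM in the other group. The 3 values of each group lay close together and well apart from the other group. It fell by 0.78 on the log2 scale (SE 0.13, edgeR adjusted p = 0.0387), that is, it was 1.72-fold higher in the controls. The edgeR adjusted p was 0.153 when control replicate 1 was left out, 0.262 for control replicate 2, 0.0747 for replicate 2 labelled VGD1 and 0.0764 for replicate 3 labelled VGD1, so the call ended in each case. With limma-voom, which called 0.228% of all tested genes, the adjusted p was 0.0525. Without control replicate 3 or replicate 1 labelled VGD1 the locus was still called, and the log2 fold change stayed between -0.83 and -0.71 in all 14 alternatives.

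**Figure D3:**
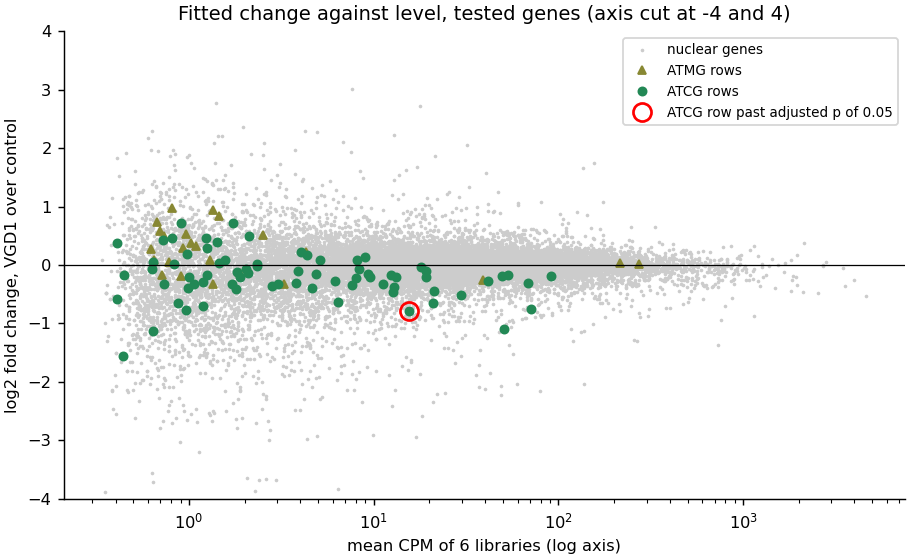
Fitted log2 fold change (libraries labelled VGD1 over controls) against mean CPM of the 6 libraries on a log axis, for nuclear genes in grey, mitochondrial-encoded loci as triangles and chloroplast-encoded loci in green. The called locus, ATCG00390, is ringed at -0.78, and the green points range from -1.55 to 0.72 and lie mostly below 0.

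More loci lay below 0 than above it, but 1 library carried much of this. Of the 73 tested loci 53 had a log2 fold change below 0 (72.6%, against 50.1% of all tested genes), and the median was -0.19 (quartiles -0.36 and 0.02), where the median of all tested genes was close to 0 (-0.0004). Replicate 1 labelled VGD1 had the lowest value of the 6 libraries at 44 of the 73 loci, or 60.3%, against 22.8% of all tested genes. Without that library the median was 0.0048.

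Neighbouring tested loci were about as unlike in their log2 fold change as any pair: the median absolute difference was 0.323 between neighbours in the order of locus numbers and 0.345 over all pairs. In the log2 difference between control replicates 1 and 2, neighbours were more alike, with 0.412 between neighbours and 0.618 over all pairs. In the 10 consecutive rows from ATCG00390 to ATCG00480, a stretch picked out after its values were seen and so without a test, all 8 tested loci lay below 0, with log2 fold changes from -1.10 to -0.39 and a median of -0.64. Of the 9 plastid loci with non-overlapping groups, 5 were among them. As a share of all plastid counts, the stretch made up 21.6%, 25.8% and 22.8% in control replicates 1 to 3 and 15.9%, 17.2% and 17.3% in replicates 1 to 3 labelled VGD1. The groups did not overlap in this share, a difference that the choice of the stretch for its low values already holds.

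ATCG00470 and ATCG00480 supplied most of the reads of that stretch. ATCG00470 measured 55.5, 82.6 and 70.3 CPM in control replicates 1 to 3 against 17.8, 40.4 and 39.3 CPM in the other group, with no overlap (log2 -1.10, SE 0.32, edgeR adjusted p = 0.235). ATCG00480 measured 77.4, 101 and 89.1 CPM against 33.9, 60.6 and 64.5 CPM, again with no overlap (log2 -0.75, SE 0.24, edgeR adjusted p = 0.249). Neither passed the edgeR test, although both passed with DESeq2 (adjusted p = 0.00291 and 0.0241), which called 2.18% of all tested genes. Without replicate 1 labelled VGD1 their log2 fold changes were -0.80 and -0.51 (edgeR adjusted p = 0.0599 and 0.0897).

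Outside that stretch, ATCG00220 measured 20.7, 27.3 and 29.2 CPM in control replicates 1 to 3 against 13.4, 19.7 and 15.4 CPM in the other group. Its groups did not overlap, and the log2 fold change was -0.65 (SE 0.18, edgeR adjusted p = 0.168, DESeq2 adjusted p = 0.0476). ATCG01020 measured 31.2, 42.8 and 30.6 CPM against 19.8, 29.4 and 25.3 CPM, just without overlap (log2 -0.51, SE 0.18, edgeR adjusted p = 0.252). ATCG00080, a locus of few reads, stood at 0.881 ± 0.16 and 0.399 ± 0.06 CPM (SD, n = 3 each, log2 -1.13, edgeR adjusted p = 0.334). ATCG01100 had a log2 fold change of -0.78 with overlapping groups (edgeR adjusted p = 0.529). Besides L20, the highest log2 fold changes belonged to ATCG01050, ATCG00130, ATCG00710 and ATCG00380 (0.71, 0.50, 0.46 and 0.46), all with overlapping groups and edgeR adjusted p-values of 0.561 to 0.802.

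**Figure D4:**
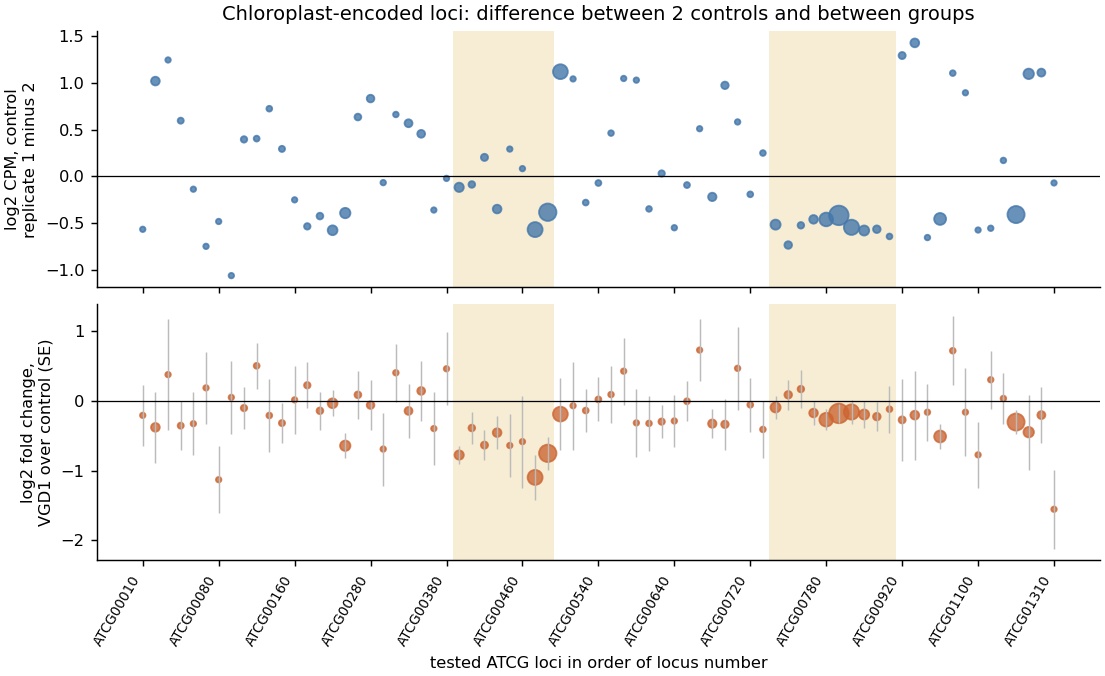
The 73 tested chloroplast-encoded loci in order of locus number, point area growing with mean CPM, with the rows ATCG00390 to ATCG00480 and ATCG00740 to ATCG00830 shaded. Above, the log2 CPM of control replicate 1 minus control replicate 2, below 0 at all 10 loci of the second shaded stretch; below, the log2 fold change of libraries labelled VGD1 over controls with its SE, below 0 at all 8 tested loci of the first.

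Plastid loci also differed among libraries of the same group, and in different directions. Among the 36 loci with a mean of at least 3 CPM, 12 were more than 1.3-fold higher in control replicate 1 than in control replicate 2, and 17 were more than 1.3-fold lower. The 17 included ATCG00780, ATCG00790, ATCG00800 and S11's row ATCG00750. The 10 rows from ATCG00740 to ATCG00830, which hold S11, were all higher in control replicate 2. The 12 loci included ATCG00490 and ATCG01180.

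These sets were split on control replicates 1 and 2. The other 4 libraries did not enter that split, but they counted toward the read filter and the mean of at least 3 CPM. Summed over the 12 loci, those 4 libraries gave 164 CPM in control replicate 3 and 63.1, 168 and 203 CPM in replicates 1 to 3 labelled VGD1. Summed over the 17 loci they gave 611 CPM and 353, 508 and 505 CPM. Of these 4 libraries, replicate 1 labelled VGD1 was lowest in both sets.

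ATCG00490 belongs to the first set, so its difference between control replicates 1 and 2 follows from the choice. It measured 68.6, 31.5 and 59.4 CPM in control replicates 1 to 3 against 19.2, 52.5 and 66.4 CPM in the other group, so control replicate 2 and replicate 1 labelled VGD1 were low and the other 4 libraries were high. The groups overlapped almost fully (log2 -0.19, SE 0.52, edgeR adjusted p = 0.920). ATCG01180, of the same set, measured 37.8, 17.6 and 17.1 CPM against 7.29, 21.7 and 26.5 CPM, likewise with overlap (edgeR adjusted p = 0.789). Its control replicate 3 lay beside control replicate 2, unlike that of ATCG00490, so the loci of the set did not share a single pattern.

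Mitochondrial-encoded RNA, the other organelle RNA in the same libraries, also differed within groups. Its 24 tested loci summed to 693, 340 and 623 CPM in control replicates 1 to 3 and to 364, 594 and 715 CPM in replicates 1 to 3 labelled VGD1. In the 4 libraries that did not enter the split of the plastid loci, replicate 3 labelled VGD1 was highest in this sum and in that of the 12 plastid loci. Replicate 1 labelled VGD1 was lowest of these 4 in both sums. Control replicates 1 and 2 stand high and low in the 12 loci by their choice. ATMG00020 and ATMG01390 supplied most of the mitochondrial reads, at means of 270 and 214 CPM in the controls, and so set most of these sums. The other 22 loci differed less between libraries. They summed to 85.6, 50.8 and 67.9 CPM in control replicates 1 to 3 and to 55.9, 66.0 and 75.4 CPM in replicates 1 to 3 labelled VGD1. Of the 24 loci 0 were called in the edgeR test, 1 had an unadjusted p under 0.05, and 18 had a log2 fold change above 0 (median 0.25). Over all tested genes 0.416% were called, 13.6% had such a p and 50.1% lay below 0. What part the differences between libraries in mitochondrial RNA have in the plastid values was not tested.

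**Figure D5:**
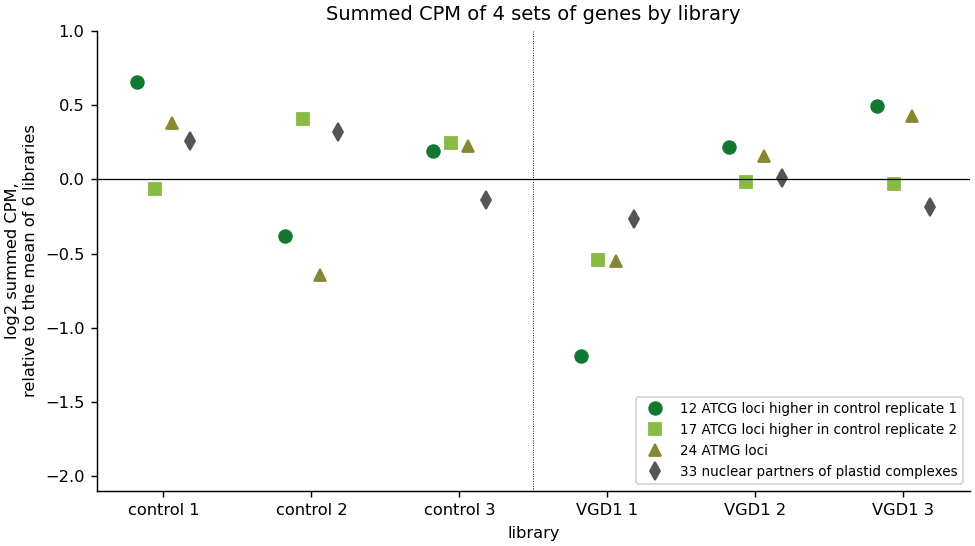
Summed CPM of 4 sets of genes in each library, on the log2 scale relative to the mean of the 6 libraries, 1 symbol per set. The 2 plastid sets were split on control replicates 1 and 2, so their places in those libraries are set by the choice. The other 4 libraries counted only toward the read filter and the level cutoff. Among these, all 4 sets, the nuclear partners included, are lowest in replicate 1 labelled VGD1.

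Nuclear genes that work with the plastid genome were examined beside it. Of 34 nuclear genes for subunits of the same complexes 33 were tested. All 33 had a log2 fold change below 0 (median -0.30), 21 had an unadjusted p under 0.05, and 0 were called with edgeR and with limma-voom, against 4 called lower with DESeq2. Over all tested genes 50.1% lay below 0, 13.6% had an unadjusted p under 0.05, and the share called was 0.416% with edgeR, 0.228% with limma-voom and 2.18% with DESeq2. ATPD, the delta subunit of the plastid ATP synthase, had the smallest p, at 196 ± 23.1 and 139 ± 15.3 CPM (SD, n = 3 each, edgeR adjusted p = 0.106). Their sum was lowest in replicate 1 labelled VGD1 (15080 CPM), as was that of the plastid loci, but control replicate 3, with 16477 CPM, was below replicate 2 labelled VGD1, with 18252 CPM.

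The 22 genes for plastid transcription, which are the sigma factors that direct the plastid-encoded polymerase, the phage-type polymerases and proteins bound to the polymerase core, gave 0 calls with edgeR, DESeq2 and limma-voom, and 10 had an unadjusted p under 0.05, against 13.6% of all tested genes. All 22 lay below 0 with a median of -0.25, against 50.1% of all tested genes, and SIG4, a sigma factor, had the smallest p (20.8 ± 1.98 and 15.1 ± 1.39 CPM, edgeR adjusted p = 0.157). Of 14 genes for plastid RNA stability and decay 1 was called, CP31B, which rose from 12.4 ± 0.19 to 51.4 ± 6.90 CPM (edgeR adjusted p = 2.23e-04), and 12 lay below 0. Limma-voom called the same gene alone, and DESeq2 called it and 2 genes lower, CP29A and CSP41A. CP29A, a related chloroplast RNA-binding protein, stood at 723 ± 59.3 and 483 ± 63.1 CPM (edgeR adjusted p = 0.0726).

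Of the 4 tested meristem markers 2 lay below 0 and 2 above (median 0.06, 0 called with edgeR, DESeq2 or limma-voom, 0 with an unadjusted p under 0.05). The 2 above 0 were STM, at 78.2 ± 15.8 CPM in the libraries labelled VGD1, and CLV1, at 59.9 ± 2.57 CPM. The 2 below 0 were WUS, at 3.01 ± 1.54 CPM in those libraries, and KNAT1, at 86.3 ± 24.8 CPM against 89.9 ± 2.93 CPM in the controls. The 15 markers of green, vascular and anther tissue all had a log2 fold change below 0, where 50.1% of all tested genes did. The 5 green tissue markers had a median of -0.37 (0 called with edgeR, 3 with an unadjusted p under 0.05), and their summed level ran from 7444 to 10783 CPM in the control group and from 6839 to 8405 CPM in the other group. RBCS1A, for the small subunit of Rubisco, is in both this list and that of the partner subunits. The 5 phloem and xylem markers had a median of -0.52 (0 called with edgeR, 3 with an unadjusted p under 0.05), with sums of 114 to 138 and 72.9 to 103 CPM. The 5 tapetum and anther markers had a median of -0.81 (0 called with edgeR, 2 with an unadjusted p under 0.05), with sums of 420 to 548 and 141 to 374 CPM. The smallest p of the green list belonged to CA1 (log2 -0.75, edgeR adjusted p = 0.129). For vascular markers it was that of SUC2 (log2 -0.54, edgeR adjusted p = 0.0722), and for anther markers that of A7 (log2 -1.52, edgeR adjusted p = 0.214). The groups did not overlap for these 3 genes. DESeq2 called 1 green and 2 vascular markers lower, and limma-voom called 0 of the 15 markers, none of which was at 0. The sums of the green tissue markers and of the phloem and xylem markers were both lowest in replicate 1 labelled VGD1. That was also the library with the least plastid RNA. The sum of the tapetum markers was lowest in replicate 2 labelled VGD1. The part of these tissues in the plastid values was not tested.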

How the data were processed

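The authors deposited 1 table of whole-number read counts per locus for each of 6 poly(A)-selected RNA-seq libraries. Per the file headers, RNA STAR made the alignments. The submitters' processing notes list TAIR10 and DESeq2 with neither version nor role. Which program counted reads, whether it used strand and what it did with reads of several matches were not given in the sources used here, so overlapping genes on opposite strands may share reads. Groups and replicate numbers came from sample titles.

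The whole table was fitted with edgeR 4.0.16 in R 4.3.3: filterByExpr (minimum count 10, minimum total 15), TMM factors, robust glmQLFit and a two-sided quasi-likelihood test. P-values were adjusted by Benjamini-Hochberg across the 19719 tested genes and called at 0.05. CPM carry TMM factors, and standard errors come from the log2 fold change and F. Libraries of the same group differed by a chi-square per gene of 8.82 to 22.4, so none was counted as a repeat of another. The members and lists were chosen with earlier results of these data known.

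Named loci are those called, the 10 of highest mean CPM, the 5 highest and 5 lowest log2 fold changes, the described loci, the 5 untested loci of most counts, and in each nuclear list the called members or that of smallest p. Others were chosen after their values were seen: ATCG00400 to ATCG00480 as a stretch, ATCG00740 to ATCG00830, ATMG00020, ATMG01390, CP29A and CSP41A. The meristem markers are all named. Functional groups by gene symbol could not be formed, as TAIR10.1 (RefSeq) describes 6 of the loci. It served for names, coding length, A content, repeated sequence and neighbours. On simulated counts for this comparison (19449 genes), the test called 74.7% of genes changed 2-fold and 93.8% of those changed 4-fold. These were 74 and 91 genes, and 26 of 19253 unchanged genes were called as well. The simulation covered all genes. Plastid loci had a larger median standard error (0.38 against 0.14), so these shares may not hold for them. Alternatives were RLE factors, library totals, scaling from nuclear genes, 2 other filters, DESeq2 1.42.0, limma-voom (limma 3.58.1), the replicate number as a block and leaving out each library.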

Additional observations from a re-analysis of the deposited data

How the results depend on the processing

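The count of plastid loci called lower, 1 in the edgeR test, was 4 with DESeq2 (ATCG00220, ATCG00390, ATCG00470 and ATCG00480) and 0 with limma-voom, and 0 to 1 when a single library was left out. No plastid locus was called higher in any of the 14 alternatives. Replicate numbers did not pair the libraries: deviations from group means correlated at -0.01, 0.033 and 0.095 for numbers 1, 2 and 3. With the replicate number as a block, 3 loci were called (ATCG00390, ATCG00470 and ATCG00480). The cause of these differences between tools was not tested. The median log2 fold change of tested plastid loci lay between -0.28 and 0.0048, the latter without replicate 1 labelled VGD1, and the log2 ratio of the plastid share between -0.44 and -0.12. Among named loci the sign changed only when a library was left out: ATCG00490 ranged from -0.55 to 0.18, ATCG00750 from -0.13 to 0.38 and ATCG01180 from -0.79 to 0.085, none of them called. Over all genes, 20 were called higher and 62 lower. These counts were 4 and 8 without control replicate 1, 2 and 2 without control replicate 2, 27 and 162 without control replicate 3, 37 and 165 when replicate 1 labelled VGD1 was left out, 46 and 39 for replicate 2 of that group, 26 and 19 for its replicate 3, 137 and 293 with DESeq2, 11 and 34 with limma-voom, 75 and 119 with the block, and 43 and 96 without the filter. Leaving out rRNA and tRNA rows was not run, since those loci are not identified. Depth limits the 60 untested loci, and 17 tested ones lay under 1 CPM.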
